A study of Rattus norvegicus with 64 samples.

Results

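Liver transcripts were compared between Sprague Dawley rats, an outbred laboratory stock, that had received bromobenzene (0.4 g/kg) and rats that had received the vehicle, given in the series text as 2% saline, both sampled at 5 h. The 16 libraries were those labelled liver and 5 h, 8 with bromobenzene and 8 with vehicle, out of 64 libraries of liver and kidney at 5 h and 10 h in the series. The labels give neither sex nor age, both groups carry no other treatment, and each library stands for the liver of 1 rat by the series description. The protocol in the labels speaks of RNA from cultured cells, and the tissue labels were followed. The liver is a mixture of cell types, so fewer cells of a type and less RNA per cell cannot be told apart in these samples.

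Bromobenzene is a halogenated benzene long studied for its injury to liver. Cytochrome P450 enzymes of hepatocytes oxidize it to reactive epoxides. These are removed by conjugation to glutathione or by epoxide hydrolase, and they bind cell proteins once glutathione runs low. The cells around the central veins, which hold most of these P450 enzymes, are the ones known to be injured.

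The deposited tables name features by Ensembl transcript ID alone, and 0 of the 31715 IDs were matched to a gene symbol in the reference tables used here. The response is therefore described by groups of transcripts set by abundance, organ and time, and 4 transcripts are given by ID. Of the 31715 transcripts, 17535 were tested and 14180 were not because their counts were too low. Those left out held at most 0.0767% of the counts of any library, and 5553 transcripts had no count in any of the 16 libraries.

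The summed estimated counts, in mega-counts (SI prefix), ran from 19.6 to 28.3 in bromobenzene livers and from 19.1 to 26.6 in vehicle livers. From 20418 to 21568 transcripts were detected per library. Transcripts enriched in liver, as defined below from other libraries, held 43.6% to 48.8% of the counts of each of the 16 libraries, and 0.247% to 2.09% of those of the kidney libraries at 5 h. Defining hepatocyte markers could not be looked up by name, so this share was the only check of the tissue label. In 56 pairs of libraries within a group, the lowest chi-square per degree of freedom was 19.7, so none counted as a repeat of another. The series text gives 8 rats for each condition and time, so p-values measure the spread between rats, with no repeat library of a rat.

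By mean correlation, some bromobenzene libraries lay nearer to the vehicle group than to their own. The library labelled bromobenzene replicate 2 had a mean Pearson correlation of 0.949 with the other bromobenzene libraries and of 0.964 with the vehicle libraries, across 10022 transcripts of at least 5 CPM (a transcript's counts per mega-count in that library). Replicate 6 (0.959 and 0.963) and replicate 8 (0.960 and 0.964) also correlated more with vehicle, by less. Replicate 4 had the lowest correlation with its own group, at 0.937. The root mean square distance from a group median, over the same transcripts, placed them otherwise. Replicate 2 lay nearer to vehicle (0.427 from its own group, 0.365 from vehicle). Replicate 6 (0.360 and 0.378) and replicate 8 (0.334 and 0.363) lay nearer to their own group. These correlations and distances are across transcripts, which are not independent replicates. Results are given with replicate 2, whose response score, given below, was the lowest of the group, and, where they rest on it, without it.

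A small part of the liver transcripts tested was called changed after bromobenzene at 5 h. The edgeR test called 269 transcripts higher and 219 lower at an adjusted p under 0.05, which was 2.78% of those tested (1.53% higher and 1.25% lower). This fit drew its estimate of spread from the 10 h livers as well. With the 5 h livers fitted alone there were 274 calls among 16618 transcripts tested, of which 253 were among the 488. Most changes were small. Among the risers 89 changed by less than 1.5-fold, 88 by 1.5-fold to 2-fold, 71 by 2-fold to 4-fold and 21 by more. The fallers were smaller still, with 121 under 1.5-fold, 64 up to 2-fold, 28 up to 4-fold and 6 beyond it. Over all tested transcripts the median log2 change was 0.00, with quartiles of -0.14 and 0.14. An unadjusted edgeR p under 0.05 was found for 2286 of the 17535, where chance alone gives about 1 in 20. The calls therefore count the changes detected, not all that may have occurred.

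Most called transcripts had nearly all bromobenzene livers on one side of the vehicle median, but few separated the groups. Of the 269 risers 261 had at least 7 of 8 bromobenzene libraries above the vehicle median, and 194 had all 8. All 219 fallers had at least 7 of 8 below it, and 178 had all 8. Of all 17535 tested, 4143 had at least 7 of 8 on one side and 1349 had all 8. The risers and fallers were chosen by a test on these same libraries, so their agreement is largely built in. Every bromobenzene library lay above every vehicle library for 37 transcripts (0.211% of those tested) and below every vehicle library for 30 (0.171%). Of these, 36 and 27 were called. Without bromobenzene replicate 2 the transcripts with no overlap rose to 97 and 99, and the calls rose to 386 higher and 372 lower (4.29% of those tested). Of the 488 calls 479 were among these 758. Replicate 2 was singled out by its weak response in these same data, so such a rise is partly built in. With any other single library left out, 37 to 72 and 32 to 47 transcripts had no overlap, and 339 to 501 were called.

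**Figure D1:**
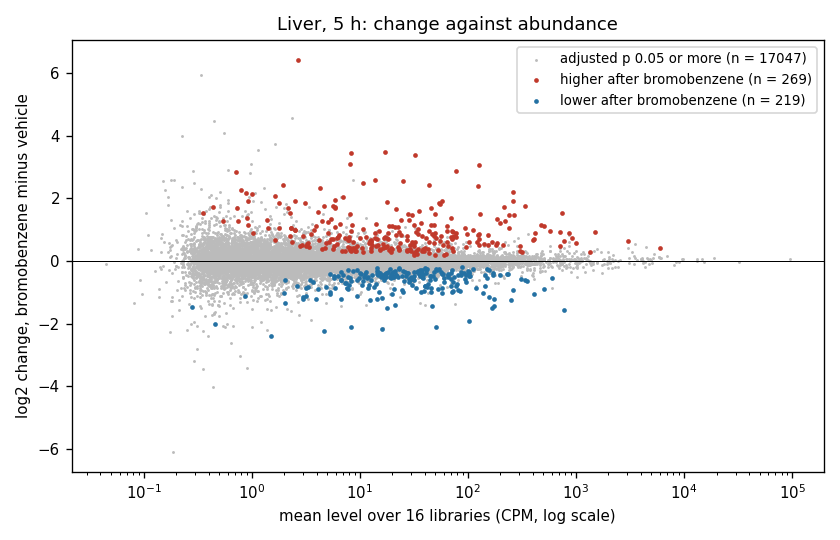
Each point is 1 of 17535 transcripts in 5 h liver, with the mean level over 16 libraries in CPM on a log axis and the edgeR log2 change (bromobenzene minus vehicle) on the vertical axis. Red points are the 269 transcripts called higher and blue points the 219 called lower. The grey cloud narrows toward the right, and called points lie closer to 0 there than at low levels.

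The balance of higher and lower calls depended on how libraries were scaled. With scaling by library totals alone there were 194 higher and 241 lower calls, so 44.6% were higher in place of 55.1%. With limma on log2(TPM + 1), where TPM is a level per transcript length, 183 were higher and 286 lower (39% higher) among 14077 transcripts tested. The median log2 change of all transcripts moved by less than 0.1 under these scalings, to -0.03 and -0.04. Counts of risers against fallers are therefore given below with this limit.

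The libraries carry title numbers that fall into separate ranges, and the groups are unequally spread over them. Numbers below 19 hold 2 bromobenzene and 5 vehicle livers of 5 h, and numbers of 19 and above hold 6 and 3. The labels do not say what the numbers stand for. Fitted alone, the lower range gave 0 calls by edgeR, and only edgeR was run there. An unadjusted p under 0.05 was found for 956 of its 18363 transcripts tested, near the 1 in 20 that chance gives. The higher range gave 13 calls, 10 higher and 3 lower, with 1822 of 18491 at an unadjusted edgeR p under 0.05. With the range as a covariate there were 435 calls, of which 397 were among the 488. The 2 bromobenzene livers of the lower range are replicates 1 and 2.

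Among called transcripts of at least 5 CPM with at least 7 of 8 bromobenzene livers on one side of the vehicle median, the largest rise was that of ENSRNOT00000001876.6. Its level was 12.2 TPM in the lowest bromobenzene liver, 42.2 in the median and 96.3 in the highest, against 0.189, 0.759 and 15.2 TPM in vehicle livers. All 8 bromobenzene livers stood above the vehicle median, and the groups overlapped only through vehicle replicate 3 at 15.2 TPM, which was above bromobenzene replicate 6 at 12.2 TPM. Vehicle replicate 7 stood at 11.8 TPM, and the other vehicle livers at 2.27 TPM or less. The log2 difference came to 3.49 (SE 0.63, edgeR adjusted p = 0.00116), or 11.3-fold. Without vehicle replicate 3 it came to 4.19 (edgeR adjusted p = 0.000193), and with limma on log2(TPM + 0.1) to 4.56. Bromobenzene replicate 2, which had the weakest response by the score given below, stood at 28.98 TPM here, above every vehicle liver.

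ENSRNOT00000014348.5 rose by a similar factor from a lower level. Its lowest, median and highest levels were 1.30, 4.83 and 24.5 TPM after bromobenzene and 0.479, 0.661 and 1.26 TPM after vehicle. The groups did not overlap in TPM, by a narrow margin, and did overlap in scaled counts. Bromobenzene replicates 2, 6 and 8 stood at 1.30 to 1.59 TPM, close to the highest vehicle liver, and the other 5 at 2.64 to 24.5 TPM. The log2 difference was 3.45 (SE 0.60, edgeR adjusted p = 0.000742), or 10.9-fold. On the log2(TPM + 1) scale, which understates changes of low transcripts, limma gave 1.78 (adjusted p = 0.0172). It was 1.19 within title numbers below 19 and 4.07 within the others, neither of which passed the test (edgeR adjusted p = 1 and 0.128).

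The 2 largest falls by the same rule were in transcripts whose vehicle levels varied widely. ENSRNOT00000028546.5 had a lowest, median and highest level of 1.28, 3.95 and 9.65 TPM after bromobenzene and 2.25, 14.1 and 84.9 TPM after vehicle. The groups overlapped, and the vehicle range was set by replicate 3 at 84.9 TPM, with the next at 26.9 TPM. The log2 difference came to -2.19 (SE 0.51, edgeR adjusted p = 0.0115). Without vehicle replicate 3 the log2 change was -1.43 and the call ended (edgeR adjusted p = 0.0639), as it did with the 5 h livers fitted alone (edgeR adjusted p = 0.101) and in limma on log2(TPM + 1) (adjusted p = 0.0532).

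ENSRNOT00000001292.5 was lower in 8 of 8 bromobenzene livers than the vehicle median. Its lowest, median and highest levels were 0.461, 0.956 and 4.06 TPM after bromobenzene and 1.42, 5.02 and 10.96 TPM after vehicle. The highest bromobenzene liver was again replicate 2, and the next stood at 1.89 TPM. The log2 difference came to -2.13 (SE 0.45, edgeR adjusted p = 0.00516), a 4.36-fold difference. It came to -1.48 with limma on log2(TPM + 1) (adjusted p = 0.00556).

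**Figure D2:**
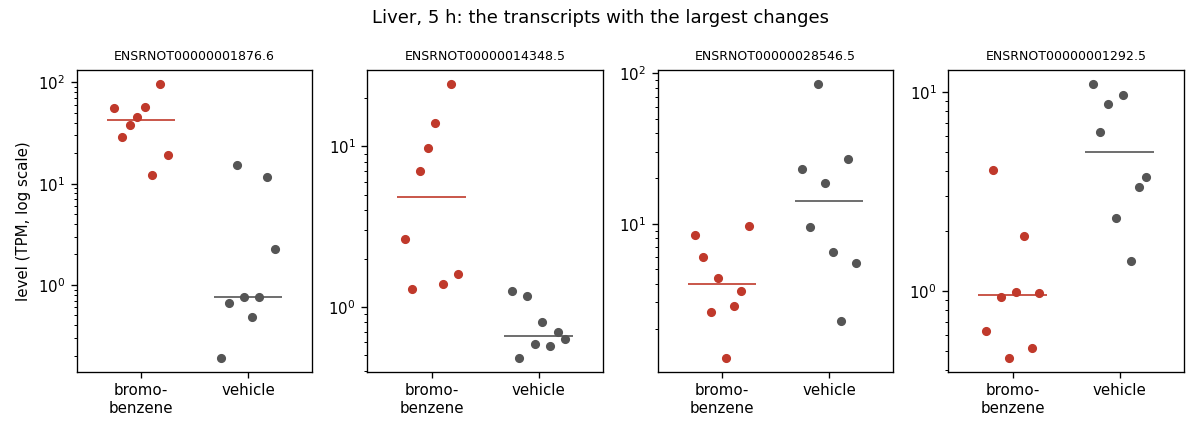
Level of the 4 named transcripts in each 5 h liver library, in TPM on a log axis, with a line at the group median (8 bromobenzene libraries in red, 8 vehicle libraries in grey). The vehicle livers of ENSRNOT00000001876.6 spread from 0.189 to 15.2 TPM, and those of ENSRNOT00000028546.5 from 2.25 to 84.9 TPM.

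Abundant transcripts were called more often, and rarer ones had to change more to be called. Transcripts were grouped by their mean over all 16 libraries. Of 1147 transcripts at 100 CPM and above, 47 rose and 32 fell (6.89% called). At 20 to 100 CPM 91 of 3839 rose and 97 fell (4.9%). At 5 to 20 CPM 82 of 5036 rose and 71 fell (3.04%). At 1 to 5 CPM 38 of 4639 rose and 16 fell (1.16%), and below 1 CPM 11 of 2874 rose and 3 fell (0.487%). With groups set by mean TPM, 4.52% of those at 100 TPM and above were called.

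The called changes were larger below 5 CPM than above it, and showed no fall with abundance above 5 CPM. Among risers the median change was 3.26-fold below 1 CPM, 2.02-fold at 1 to 5 CPM, 1.62-fold at 5 to 20 CPM, 1.71-fold at 20 to 100 CPM and 1.78-fold at 100 CPM and above. Among fallers it was 2.74-fold, 1.94-fold, 1.44-fold, 1.41-fold and 1.47-fold in the same order. The smallest called change was 2.152-fold below 1 CPM and 1.14-fold at 20 to 100 CPM. The median standard error of a log2 change went from 0.41 below 1 CPM to 0.10 at 20 to 100 CPM and 0.11 above that, so the groups differed in precision as well as in the share called. All 14 calls below 1 CPM were at least 2-fold.

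Above 5 CPM the typical size of change was close to its standard error in each group. The median size of the log2 change was 0.12 at 5 to 20 CPM, 0.09 at 20 to 100 CPM and 0.10 at 100 CPM and above, beside median standard errors of 0.13, 0.10 and 0.11. At 100 CPM and above 58.2% of log2 changes were positive, with a median of 0.03, against 52.6% at 20 to 100 CPM. That median was -0.01 with library totals alone and -0.03 with limma on log2(TPM + 1), so no direction is given for the abundant transcripts. Whether 47 rises against 32 falls in this group is an excess also depended on scaling, with 40 and 35 for totals alone and 38 and 46 for limma.

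**Figure D3:**
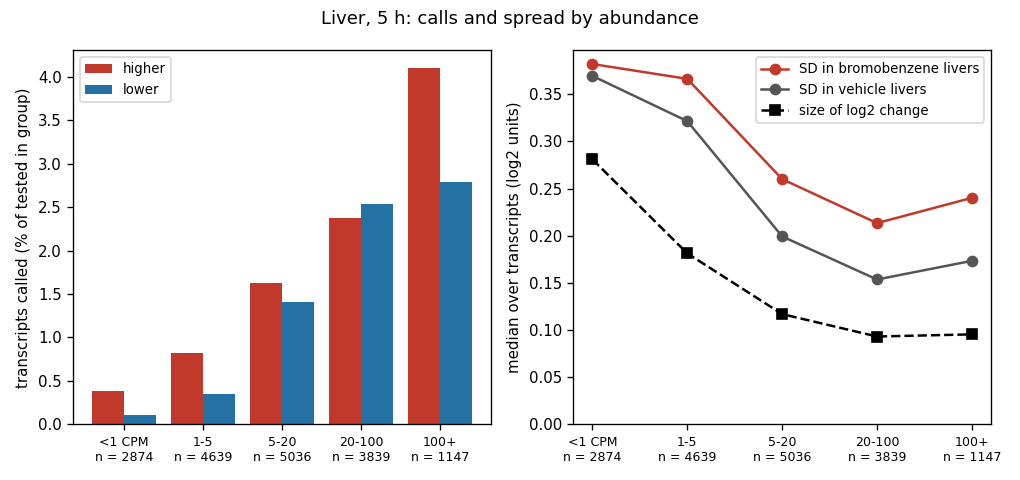
Left, the share of tested transcripts called higher (red) and lower (blue) in 5 groups of mean level in CPM, with the number tested under each. Right, for the same groups, the median over transcripts of the SD among 8 bromobenzene livers, of the SD among 8 vehicle livers and of the size of the log2 change. The share called rises from 0.487% to 6.89% from left to right, and the SDs fall up to 20 to 100 CPM and are slightly higher at 100 CPM and above.

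Transcripts typical of liver were called more often than those shared with kidney. The ratio between organs was taken from the 10 h vehicle livers and kidneys, which are not in the comparison, on the mean of log2(CPM + 0.5). Of 413 liver-enriched transcripts (at least 16-fold higher in liver and at least 5 CPM), 20 rose and 9 fell (7.02% called), and 384 did not pass. Of 1025 that were 2-fold to 16-fold higher in liver, 38 rose and 47 fell (8.29%). Of 8432 within 2-fold between the organs, 134 rose and 112 fell (2.92%). Of 7159 that were 2-fold to 16-fold higher in kidney, 71 rose and 50 fell (1.69%). All these shares stand beside 2.78% for all transcripts tested, and no test of the difference between groups was run.

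The changes of liver-enriched transcripts were centred near 0. Their median log2 change was 0.02, against 0.00 for all tested. The median change of the 20 risers was 1.87-fold, and 7 reached 2-fold. That of the 9 fallers was 2.08-fold, and 5 reached 2-fold. With totals alone 17 rose and 10 fell, and with limma on log2(TPM + 1) 17 rose and 14 fell. For transcripts 2-fold to 16-fold higher in liver, more fell than rose under each of the 4 scalings, with 46 falls and 38 rises for RLE size factors, 49 and 30 for totals alone and 66 and 30 for limma.

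Abundance and liver enrichment go together, so calls were also counted within abundance groups. Of the 413 liver-enriched transcripts 261 stood at 100 CPM and above. There 16 rose and 5 fell (8.05% called), against 31 and 27 of 886 other transcripts (6.55%). At 20 to 100 CPM 7 of 113 liver-enriched transcripts were called (6.19%), against 181 of 3726 others (4.86%). At 5 to 20 CPM 1 of 38 was called (2.63%), against 152 of 4998 (3.04%). Within a level, the shares called therefore lay closer together than the 7.02% and 2.68% over all levels.

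Kidney-enriched transcripts stood low in liver, and few were called. Of 905 defined in the same way with the organs exchanged, 506 had enough counts in liver to be tested and 399 did not. Among the 506, 6 rose and 1 fell (1.38% called, against 2.78% of all tested). Most of them lay at levels where few transcripts of any kind were called. Below 1 CPM 0 of 196 were called by edgeR, with 9 at an unadjusted p under 0.05, against 14 of 2678 others (0.523%). At 1 to 5 CPM 4 of 231 were called (1.73%), against 50 of 4408 others (1.13%). At 5 to 20 CPM 2 of 67 were called (2.99%), against 151 of 4969 (3.04%). The median change of the 6 risers was 3.25-fold, and 5 of them by at least 2-fold. Their standard errors were wide, with a median of 0.29 on the log2 scale against 0.16 for all tested.

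**Figure D4:**
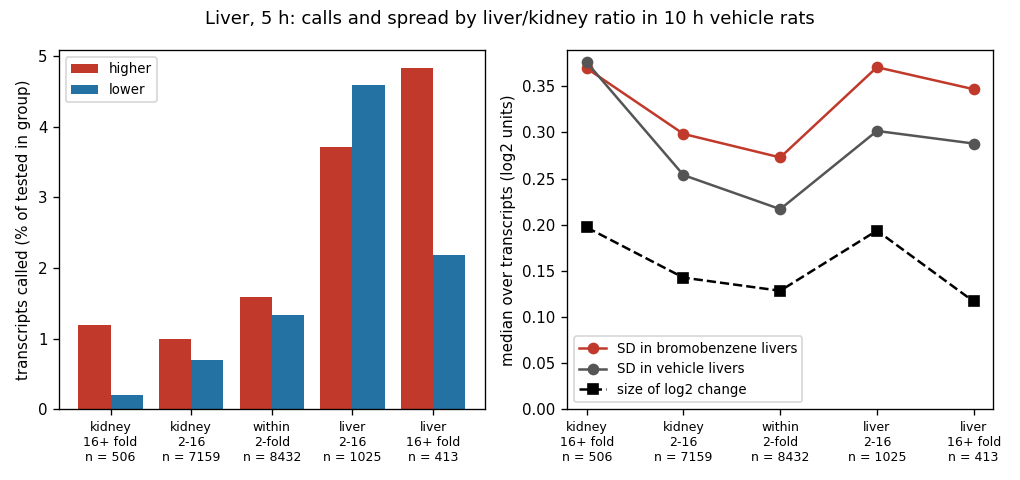
Left, the share of tested transcripts called higher (red) and lower (blue) in 5 h liver, in 5 groups of the liver to kidney ratio in 10 h vehicle rats. Right, the median SD among bromobenzene livers, among vehicle livers and the median size of the log2 change in the same groups. From 7.02% to 8.29% were called in the 2 groups on the liver side and from 1.38% to 1.69% in the 2 on the kidney side.

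The share of all counts held by organ-enriched transcripts was measured in each library. Liver-enriched transcripts held 45.9% to 48.4% of counts after bromobenzene (mean 47.2% ± 0.828, SD, n = 8) and 43.6% to 48.8% after vehicle (46.6% ± 1.54). The difference of 0.57 percentage points did not pass (two-sided exact permutation p = 0.395, adjusted over 6 library measures 0.46). Kidney-enriched transcripts held 0.184% ± 0.0132 of counts in bromobenzene livers and 0.176% ± 0.0285 in vehicle livers (exact permutation p = 0.447, adjusted 0.46). The 100 most abundant transcripts of a library held 49.3% ± 1.01 and 48.6% ± 1.42 (exact permutation p = 0.271, adjusted 0.46). Depth and the number of detected transcripts did not pass either (exact permutation p = 0.179 and 0.46, adjusted 0.46 for each).

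Animals differed more after bromobenzene than after vehicle for most transcripts. The SD of log2(CPM + 0.5) among bromobenzene livers was above that among vehicle livers for 66.4% of all tested transcripts, and the median ratio of the SDs was 1.19. The median SD at 20 to 100 CPM was 0.21 after bromobenzene and 0.15 after vehicle, and at 100 CPM and above it was 0.24 and 0.17. Below 1 CPM the SDs were 0.38 and 0.37. Among the risers the SD was higher after bromobenzene for 212 of 269, and among the fallers for 171 of 219, but these were picked by the same libraries. The SD among vehicle livers was also higher for liver-enriched transcripts at 20 to 100 CPM, at 0.33, than for other transcripts of that level, at 0.15.

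Taken over whole libraries, the larger spread did not pass a test. The distance of a library from the median of the other 7 of its group, as a root mean square over 10022 transcripts of at least 5 CPM, was 0.310 to 0.578 after bromobenzene (mean 0.405 ± 0.083, SD, n = 8) and 0.322 to 0.414 after vehicle (0.358 ± 0.0351). The two-sided exact permutation p was 0.155 (adjusted 0.46). Bromobenzene replicate 3 was the closest to its group of all 16 libraries, and replicate 4 the farthest. Without replicate 3 the difference grew from 0.047 to 0.065 (exact permutation p = 0.0266, not adjusted over the library measures). Without replicate 4 it fell to 0.018 (exact permutation p = 0.446, not adjusted either).

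The response of each animal was measured with lists that did not use it. Each library was left out, the test was run again on the others, and the left-out library was scored as its median log2 difference from the mean of the vehicle livers (itself left out) over the risers of that test minus that over the fallers. The vehicle livers that set this mean also helped to choose the lists, so a positive score is partly built in for either group. No test was run on these scores. They were 1.91 in bromobenzene replicate 5, 1.54 in replicate 7, 1.502 in replicate 4, 1.37 in replicate 1, 1.28 in replicate 3, 0.85 in replicate 8, 0.64 in replicate 6 and 0.17 in replicate 2. Vehicle livers scored from -0.05 to 0.37, with a median of 0.11. Thus 7 of 8 bromobenzene livers lay above all vehicle livers, while replicate 2 lay below vehicle replicate 3 at 0.37.

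The same lists, with the same limit, showed how many transcripts followed the group in each animal. In 7 bromobenzene livers 86.7% to 98.4% of the risers were above the vehicle mean and 92.3% to 98.7% of the fallers below it. In replicate 2 these were 67.1% and 62.4%. In vehicle livers 40.5% to 77.3% of the risers were above the mean of the other vehicle livers and 45.9% to 76.6% of the fallers below it. Vehicle replicate 3 had the most risers above, and it was also the vehicle liver with the highest ENSRNOT00000001876.6.

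The bromobenzene liver with the most transcripts far from vehicle did not have the highest response score. The one with the fewest, replicate 2, had the lowest score. Counted against the median of 7 vehicle livers, 820.5 transcripts of at least 5 CPM differed at least 2-fold in bromobenzene replicate 4, as a mean over the 8 choices of 7 vehicle livers. The other bromobenzene livers had 172 to 464 such transcripts and the vehicle livers 120 to 219. Replicate 4 also had the lowest number of transcripts at 1 TPM or more, 12766 against 13323 to 14496 in the other libraries, and the smallest TMM factor of all 16 libraries at 0.877. Its score of 1.502 was not the highest. The part of these library features in its distance was not tested. Without replicate 4 there were 380 calls, 229 higher and 151 lower.

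**Figure D5:**
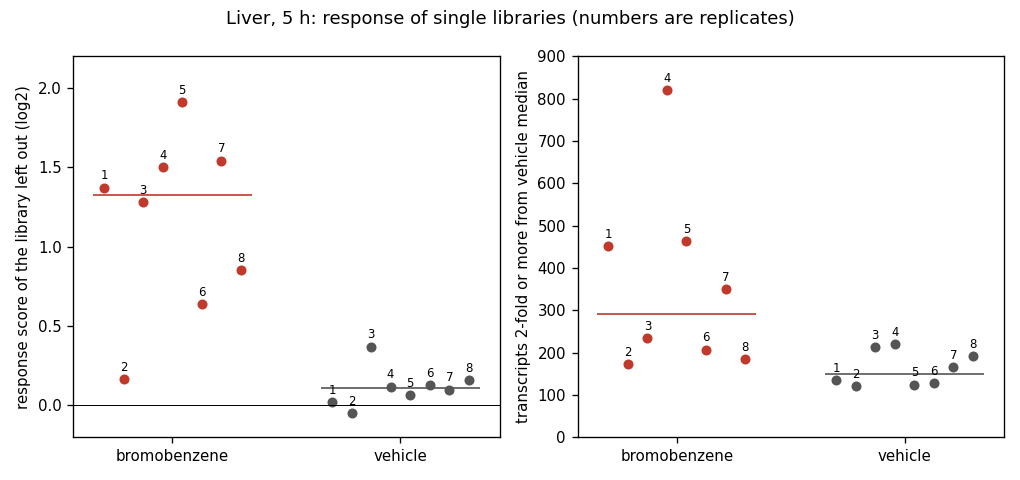
Left, the response score of each 5 h liver library on the log2 scale, from lists called without that library. Right, the number of transcripts of at least 5 CPM that differ 2-fold or more from the vehicle median. Points are libraries, labelled by replicate, and lines are group medians. Bromobenzene replicate 2 scores 0.17, among the vehicle livers, and replicate 4 stands alone on the right at 820.5.

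Only part of the early calls was called in the same direction at 10 h, in other rats. Of the 269 risers 69 were also higher at 10 h in the shared fit of 32 livers and 12 were lower, and their median log2 change was 0.18 at 10 h against 0.77 at 5 h. Of the 219 fallers 68 were lower and 7 higher, with medians of -0.19 and -0.55. The sign at 10 h was the same for 181 of the risers and 157 of the fallers, against 9370 of all 17535 tested. At 10 h 11.2% of all 17535 transcripts were called, 1083 higher and 884 lower. The early medians come from the comparison that chose the transcripts and support nothing, and the test of the difference between the times, given next, contains the same 5 h values.

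That test of the difference passed for 607 of 17535 transcripts (3.46%). Among the risers of 5 h it passed for 90, of which 89 were less positive at 10 h, and among the fallers for 50, of which 48 were less negative. Since both lists were chosen on the 5 h change, a smaller change at 10 h is partly built in. The strong risers and the strong fallers differed in their later values. For the 92 risers of at least 2-fold the 10 h median was 0.20 on the log2 scale, and 38 of them passed the test of the difference. The 34 fallers of at least 2-fold had a median of -0.95 at 10 h, with 21 called lower and 1 higher, and 3 passed the test of the difference.

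Lists from the 10 h livers alone gave the reverse view, since no 5 h library chose them. Of 16311 transcripts tested there 1669 were called (10.2%). Beside 1.53% called higher and 1.25% called lower among all transcripts at 5 h, 70 of the 853 risers of this list rose, 5 fell and 778 were not called. Their median log2 change was 0.09. Among the 816 fallers 67 fell, 16 rose and 733 were not called, and the median was -0.07. The difference between the mean log2 levels of these risers and fallers, relative to the vehicle mean, was 0.12 to 0.40 in bromobenzene livers of 5 h and -0.12 to 0.15 in vehicle livers. Bromobenzene replicates 2 and 4 had the smallest values, 0.12 and 0.13, and overlapped with vehicle replicate 8 at 0.15.

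The 2 named risers were not called higher at 10 h, when their levels in vehicle livers were above those at 5 h. ENSRNOT00000001876.6 had a median of 43.3 TPM in vehicle livers at 10 h against 0.759 TPM at 5 h, and 27.5 TPM in bromobenzene livers at 10 h. With bromobenzene its log2 difference was -0.84 at 10 h (SE 0.56, edgeR adjusted p = 0.387), and the difference between the times passed (log2 difference -4.34, SE 0.84, edgeR adjusted p = 0.00273). ENSRNOT00000014348.5 had a median of 9.97 TPM in vehicle livers at 10 h against 0.661 TPM at 5 h, and 10.1 TPM in bromobenzene livers at 10 h. Its change was -0.06 at 10 h (SE 0.51, edgeR adjusted p = 0.966), and the times differed by -3.51 (log2, SE 0.78, edgeR adjusted p = 0.00833).

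Between 5 h and 10 h the vehicle livers alone changed by a log2 value of 3.62 for ENSRNOT00000001876.6 (SE 0.64, edgeR adjusted p = 0.000168) and by 3.74 for ENSRNOT00000014348.5 (SE 0.60, edgeR adjusted p = 5.48e-05). This comparison shares the 5 h vehicle livers with the bromobenzene comparison, so the values are not independent of it. ENSRNOT00000028546.5 rose in vehicle livers too, by 3.13 (SE 0.51, edgeR adjusted p = 6.13e-05), to a median of 199.2 TPM at 10 h. Its bromobenzene median was 120.2 TPM at 10 h (log2 change -0.75, SE 0.47, edgeR adjusted p = 0.353). ENSRNOT00000001292.5 had a median of 6.72 TPM in vehicle livers at 10 h, near its 5.02 TPM at 5 h. It was the one of the 4 that was also called at 10 h, with 1.84 TPM after bromobenzene (log2 change -1.36, SE 0.43, edgeR adjusted p = 0.0382).

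The kidneys of the same rats, which the labels do not match to livers, gave another reference for the early response. The fit took liver and kidney libraries as independent, although both organs of a rat were sampled. Over 14130 transcripts with at least 1 CPM in each organ, the liver and kidney responses at 5 h differed for 140 (0.991%). Among 245 liver risers measured this way, 61 had a more positive change in liver and none a more positive one in kidney. Among 208 fallers 55 had a more negative change in liver. Since the lists were chosen in liver, a larger change there is partly built in. The risers had a median log2 change of 0.07 in kidney against 0.72 in liver, and the fallers -0.03 against -0.53.

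Among the risers of at least 2-fold the kidney values leaned the same way. The 70 measured in both organs had a median log2 change of 0.24 in kidney, and 78.6% of them were positive, against 50.4% of all transcripts. Transcripts are not independent replicates, and kidney title numbers are spread unequally over the groups, as in liver. The part of the title numbers in this lean was not tested. The 26 fallers of at least 2-fold had a median of 0.00 in kidney, with 50% positive. Single kidney changes were not called in this fit by edgeR, with 0 of 14130 at an adjusted p under 0.05, 939 at an unadjusted p under 0.05 and 122 called by DESeq2. Without bromobenzene replicate 2 of the liver the organs differed for 371 transcripts, and without replicate 5 for 89.

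The named transcripts differed in how kidney behaved. ENSRNOT00000014348.5 had a median of 10.1 TPM after bromobenzene and 6.96 TPM after vehicle in kidney at 5 h, and its change was more positive in liver (log2 difference 2.86, SE 0.71, edgeR adjusted p = 0.0425). ENSRNOT00000001292.5 had 4.27 and 3.90 TPM in kidney, and its change was more negative in liver (log2 difference -2.33, SE 0.49, edgeR adjusted p = 0.0136). ENSRNOT00000001876.6 was low in kidney, with medians of 1.98 and 1.31 TPM, and its difference did not pass (log2 difference 1.84, SE 1.11, edgeR adjusted p = 0.519). ENSRNOT00000028546.5 had 45.9 and 76.2 TPM in kidney, and its difference did not pass either (log2 difference -1.46, SE 0.68, edgeR adjusted p = 0.387).

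Risers, fallers and all tested transcripts differed somewhat in level and length. The median mean level was 21.6 CPM for risers, 27.4 CPM for fallers and 7.33 CPM for all tested. The median transcript length was 2298 nt for risers, 2808 nt for fallers and 2163 nt for all tested. Per length, the median level was 14.1 TPM for risers and 13.2 TPM for fallers, against 4.62 TPM for all tested. These are descriptions of lists chosen by the test, and no test was run on them.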

How the data were processed

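Per the labels' protocols, libraries were stranded, enriched for poly-A RNA and read in pairs of 150 nt. Per the submitters' processing notes, kallisto 0.42.4 was used and the build named is Rnor_6.0. The sources used here do not state how reads were trimmed, and the annotation release is not given in them. The authors deposited estimated counts per transcript, not whole because shared reads are divided, and TPM, a level per length with a fixed sum per library. Isoforms, near-identical paralogs and pseudogenes are therefore uncertain.

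Here estimated counts were rounded, kept where filterByExpr passed them (at least 10 counts in enough libraries and 15 in all), and scaled by TMM. The test was edgeR 4.0.16's glmQLFTest after glmQLFit and estimateDisp, both robust, run in R 4.3.3. The 32 liver libraries of 4 groups shared one fit with no covariate, and the organs at 5 h shared another. Calls used a Benjamini-Hochberg adjusted p under 0.05. CPM used library totals; distances, SDs and scores used TMM-scaled CPM with 0.5 added before log2. Exact permutation tests ran over 12870 splits. Alternatives used DESeq2 1.42.0, limma 3.58.1, other scalings, filters and libraries left out. The edgeR test was tested on simulated data, with changes set in transcripts of at least 1 CPM. It recovered 28 of 50 rises of 1.5-fold, 44 of 50 of 2-fold and 50 of 50 of 4-fold. Replicates were numbered in record order, which pairs nothing.

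Transcripts named had an adjusted p under 0.05, at least 5 CPM and at least 7 of 8 bromobenzene libraries on one side of the vehicle median; the 2 largest rises and 2 largest falls of 415 such transcripts are given. Lists of gene symbols and cell type markers were not tested, since no ID had a symbol. The members and lists were chosen with earlier results of these data known. Kidney libraries of bromobenzene rats at 10 h were not used here.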

Additional observations from a re-analysis of the deposited data

Results flagged for a closer look

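Of 28 groups of library values or transcript levels checked, 4 held a sample far from the others by Dixon's test, where chance flags about 1 in 20. The 100 most abundant transcripts held 51.4% of the counts of 1 vehicle liver (replicate 7), with the next at 48.8%. Bromobenzene replicate 4 had 820.5 transcripts at least 2-fold from the vehicle median, with the next bromobenzene liver at 464. ENSRNOT00000028546.5 stood at 84.9 TPM in vehicle replicate 3, with the next vehicle liver at 26.9 TPM. ENSRNOT00000001292.5 stood at 4.06 TPM in bromobenzene replicate 2, with the next bromobenzene liver at 1.89 TPM.

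The response differed between times or organs, by a test of the difference itself, for 3 of the named transcripts. The change in liver was less positive at 10 h than at 5 h for ENSRNOT00000001876.6 (log2 difference -4.34, edgeR adjusted p = 0.00273) and ENSRNOT00000014348.5 (log2 difference -3.51, edgeR adjusted p = 0.00833). At 5 h the change was more positive in liver than in kidney for ENSRNOT00000014348.5 (log2 difference 2.86, edgeR adjusted p = 0.0425) and more negative for ENSRNOT00000001292.5 (log2 difference -2.33, edgeR adjusted p = 0.0136).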

How the results depend on the processing

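The 488 calls in 5 h liver stayed within 1.5 times under 23 of 27 alternatives. There were 274 with the 5 h livers fitted alone, 0 within title numbers below 19, 13 within the others, and 339 to 758 with single libraries left out. The 607 differences between 10 h and 5 h became 919 with DESeq2, and 488 to 781 with single libraries left out. The 140 differences between organs became 372 with DESeq2, and 89 to 371 with single libraries left out. The 6.89% called at 100 CPM and above became 4.52% with groups set by TPM. The liver-enriched share differed by -0.16 percentage points as a share of TPM (exact permutation p = 0.815) and by -0.0425 within title numbers of 19 and above (exact permutation p = 0.964), in place of 0.57, so its sign was not stable. The spread between animals differed by 0.018 to 0.065 with single libraries left out, in place of 0.047. Within title numbers below 19 it differed by 0.237 (exact permutation p = 0.0476, unadjusted, 2 against 5 libraries). There each bromobenzene liver was measured from the other alone, and each vehicle liver from the median of several. Such distances are unlike by construction, so no conclusion on spread is drawn from this range. In each case the cause was not tested. The median log2 change of liver-enriched transcripts ran from -0.029 to 0.042 under 20 alternatives. That of kidney-enriched transcripts ran from -0.024 to 0.097 under 18, so neither kept its sign. These medians moved by less than 1 SD of single bromobenzene livers, which is a loose limit for a difference between groups. For these medians and the abundance groups, leaving libraries out was chosen after seeing the data. All named transcripts kept their direction under 27 alternatives each, and all 4 lost their call within each range of title numbers. No paired analysis was possible because the labels give no replicate numbers and do not say which liver and kidney came from one rat, so the organ comparison took them as independent. Low counts limit what could be called, since below 1 CPM no change under 2.152-fold was called.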
